A study of Danio rerio with 4 samples.

Results

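Axon guidance genes encode the signals that steer growing nerve fibres and the receptors that read them. The 105 genes described here were taken by symbol, as every gene whose name begins with slit, robo, ntn, unc5, sema, plxn, nrp, efna, efnb, epha or ephb, or is *dcc*, upper case included, that stands once in the table of each stage and reached 20 summed reads at 36 hours post fertilization (hpf) or an FPKM (fragments scaled to transcript length and library size) of 1 in either library at 72hpf. They are 105 of 31388 genes in the 36hpf table and of 31950 in the 72hpf table. Of 106 symbols found once in both tables, *sema4aa* was left out at 2 and 4 reads and an FPKM of 0.120 and 0.182. All 105 reached the minimum at 36hpf and 94 reached it at 72hpf, so that 11 were compared at 36hpf only. Just inside the read minimum were *NTN5* with 27 and 13 reads and *sema4gb* with 13 and 29. Here and throughout, a pair of values gives sibling-labelled eyes first and mutant-labelled eyes second. Around the FPKM minimum, *NTN5* was inside at 0.953 and 1.04, and *PLXNB2 (3 of 5)* was outside at 0.989 and 0.754.

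Guidance signals are secreted or held on membranes, and most work as matched pairs of ligand and receptor families. Slit proteins repel axons that carry Robo receptors. Netrins attract axons through DCC and repel them through Unc5 receptors. Secreted class 3 semaphorins act through complexes of neuropilins and plexins, while membrane-bound semaphorins mostly bind plexins directly. Ephrins, anchored in the membrane, signal to Eph receptor tyrosine kinases on neighbouring cells, EphA receptors preferring ephrin-As and EphB receptors ephrin-Bs. In the vertebrate eye these families direct ganglion cell axons across the retina, out through the optic disc and along the optic pathway, and gradients of Eph receptors and ephrins give ganglion cell axons their address in the midbrain. Many of the same genes also pattern blood vessels, neural crest and epithelia. Of the 105 genes, 52 encode ligands and 43 encode receptors of these families. The other 10 were taken by their prefix but belong to none of these ligand and receptor systems: *unc50*, a Golgi protein gene, 3 netrin-G genes, relatives of the netrins whose membrane-anchored products do not act through DCC or Unc5 receptors, and 6 Slitrk genes, whose transmembrane products organize synapses and neurites.

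The RNA came from eyes dissected from TL strain zebrafish. Each stage, 36hpf and 72hpf, had 1 sample of *tet2-/-;tet3-/-* mutants and 1 sample of sibling controls, and 100 eyes were dissected per stage. Mutants carry frameshift alleles of both genes, which encode enzymes that oxidize 5-methylcytosine to 5-hydroxymethylcytosine, and came from in-crosses of double heterozygotes, so that siblings, chosen by their wild-type appearance, can themselves carry mutant alleles. Since each genotype and stage has 1 sample, no difference below has a replicate check or a p-value. At 36hpf *tet2* had 9646 and 12459 reads (log2 fold-change 0.07), while *tet3* had 8381 and 8611 (-0.26). At 72hpf the FPKM was 33.6 and 34.1 for *tet2* and 55.9 and 37.9 for *tet3*. Counts over a whole gene do not show whether a frameshift is present, and because *tet2* was not lower in mutant-labelled eyes at either stage, the libraries are named by their labels.

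At 36hpf the deposited table gives the mean of 2 whole read counts per gene and genotype, which were summed here, to 88875538 and 106912677 reads over all genes, and scaled to the effective size of each library. A log2 fold-change above 0 means more in mutant-labelled eyes, and its exact 95% interval (Clopper-Pearson) covers only the error of counting. At 72hpf the values are FPKM and the difference of log2(FPKM + 1), for which the depth is not known, and a difference so taken understates the change of low genes. Over all genes the median was 0.01 at 36hpf and 0.02 at 72hpf. The stages were sequenced and processed differently, so their values are set side by side and not subtracted. In bulk tissue, fewer cells of a type and less RNA per cell cannot be told apart.

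Other tissues differed between the libraries as well. At 36hpf 8 of 8 mesenchyme markers were above 0 (611 and 1537 summed reads per 1000000), as were 6 of 6 epidermis markers (1733 and 7090) and 5 of 5 erythrocyte markers (255 and 394), while 7 of 7 lens markers (3495 and 887) and 6 of 6 immune markers (22.9 and 11.2) were below 0. Of 8 ganglion cell markers measured at 36hpf, 5 were below 0 (313 and 136 reads per 1000000, with *pou4f3* at 0 reads in sibling-labelled eyes), and *atoh7*, the transcription factor required for ganglion cell genesis, had 13794 and 585 reads. Without *atoh7* the sum was 156 and 131, and *alcama* alone held 8874 of its 14102 reads in mutant-labelled eyes. Higher in mutant-labelled eyes were *alcama* (5213 and 8874 reads), *rbpms2a* (728 and 1006) and *pou4f1* (28 and 82). Lower were *isl1* (1972 and 597 reads), *rbpms2b* (5599 and 3463), *pou4f2* (136 and 23) and *isl2b* (93 and 56). Of 4 markers of brain outside the retina measured at 36hpf, 2 were above 0 and 2 below (5.82 and 3.38 summed reads per 1000000). Among these brain markers, *hoxb3a* had 199 and 0 reads and *egr2b* 7 and 48. At 72hpf 8 of 8 mesenchyme markers were above 0 (summed FPKM 240 and 454), as were 9 of 9 muscle markers (23.6 and 178). Of the muscle markers, *myl7* and *cmlc1* were at 0 in sibling-labelled eyes. Above 0 too were 4 of 4 erythrocyte markers (340 and 957) and 5 of 6 epidermis markers (1583 and 2558). Of the ganglion cell markers, 7 of 10 were above 0 (567 and 697). There *atoh7* was higher in mutant-labelled eyes (FPKM 30.5 and 81.2), the reverse of 36hpf, and without it the ganglion cell sum was 536 and 616. By contrast, 6 of 7 lens markers were below 0 (11142 and 5012). The 8 retinal marker genes found had a median of 0.07 at 36hpf (1615 and 1780 summed reads per 1000000) and of -0.14 at 72hpf (summed FPKM 1108 and 1027), so markers of the labelled tissue were present in every library. The part of these tissues in the values below was not tested.

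At 36hpf guidance genes leaned towards mutant-labelled eyes. Together they had 264281 and 397534 reads, or 3002 and 3683 per 1000000. A log2 fold-change above 0 was measured for 73 of 105 (69.5%), against 51% of the 21876 genes tested, and their median was 0.28. At the threshold of 2 the counts were too small to read as a shift. At 2 or more were 2 of 105 genes, against 1.77% of all genes, and at -2 or less 0, against 1.4%. Without the Slitrk and netrin-G genes, 1 of 96 was at 2 or more. At the lower threshold of 1, 13 of 105 (12.4%) were at 1 or more against 8.9% of all genes, and 4 (3.81%) at -1 or less against 6.15%. Among the 100 genes with at least 100 reads the counts were 13 and 3, against 7.37% and 4.32% of all genes at that depth. The interval lay wholly above 0 for 61 genes and wholly below 0 for 24. It lay wholly at 1 or more for 11 genes and wholly at -1 or less for 0, so that none of the 4 genes at -1 or less was clear of that threshold by counting error alone. Intervals were not counted over all genes tested, so these interval counts have no share of all genes beside them. They are not read as a trait of guidance genes.

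**Figure D1:**
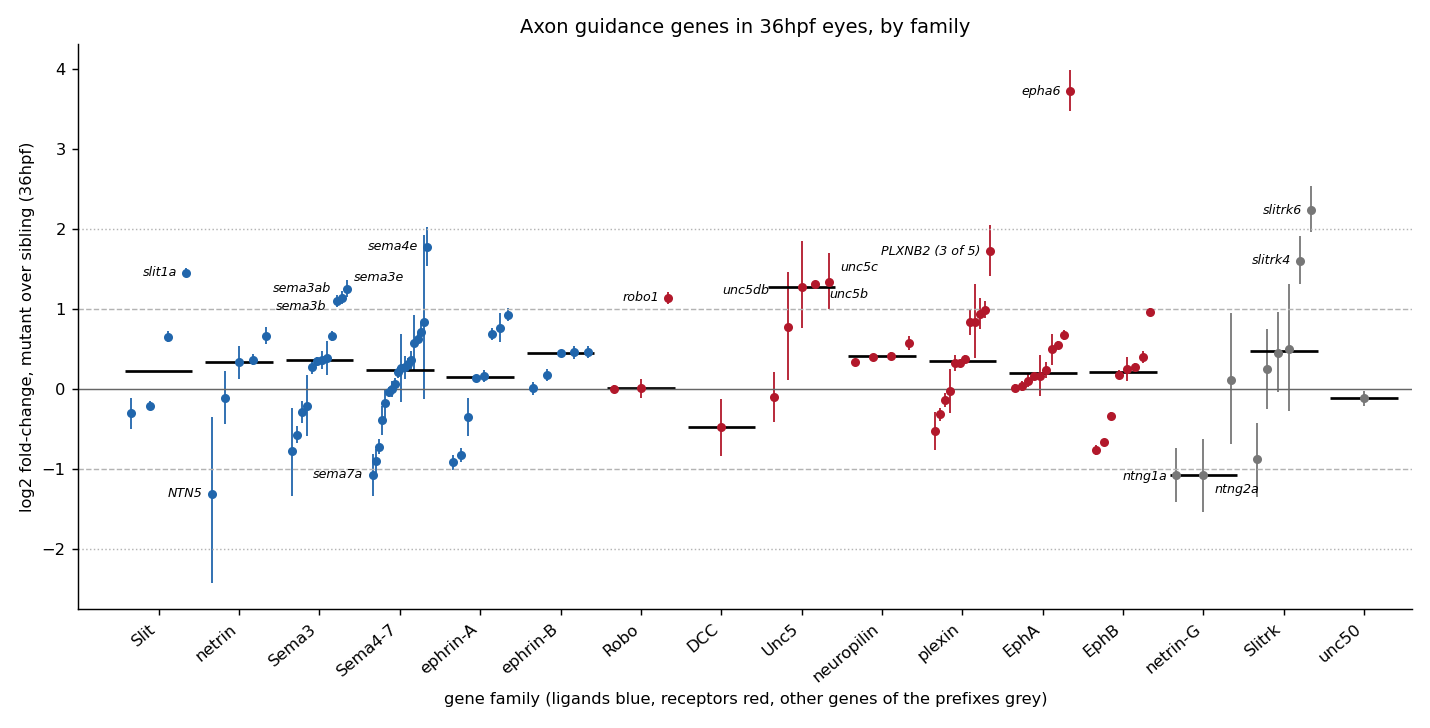
Log2 fold-change at 36hpf (vertical axis, mutant-labelled over sibling-labelled) of each of the 105 genes by family, with bars for the exact 95% counting interval and a black line at each family median. Most points lie above 0, *epha6* is highest at 3.72, and the Unc5 receptors have the highest family median (1.28) and the netrin-G genes the lowest (-1.07).

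Among the Slit ligands, *slit1a* was higher in mutant-labelled eyes and its sister gene lower. *slit1a* (chromosome 13, 425029 to 508194 on the zebrafish genome GRCz10, the span the table gives for the whole gene) had 3244 and 10877 reads, a log2 fold-change of 1.45 (interval 1.39 to 1.51). *slit1b* had 440 and 438 reads (-0.30, interval -0.49 to -0.11). The 2 intervals do not overlap. *slit3* had 2323 and 4483 reads (0.65), and *slit2* had 5017 and 5328 (-0.21). So 2 Slit genes were higher and 2 lower in mutant-labelled eyes, each with an interval clear of 0.

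Their Robo receptors showed a single gene at 1 or more. *robo1* (chromosome 15, 39431052 to 39755758) had 2085 and 5634 reads (1.14, interval 1.07 to 1.21). *robo3*, with 5192 and 6361 reads, and *robo4*, a receptor of endothelial cells, with 1032 and 1274, had log2 fold-changes of -0.00 and 0.01 and intervals that span 0. The family median of 0.01 turned to -0.00 with DESeq2 size factors. *robo2*, the gene of the zebrafish astray mutant, whose retinal axons stray from their path, stands on more than 1 row of each table and could not be joined, so it is not among the 105. Its 36hpf rows had 19 and 97 reads (2.03, interval 1.34 to 2.85) and 949 and 2443 reads (1.07, interval 0.96 to 1.18), both higher in mutant-labelled eyes. Its 72hpf rows had an FPKM of 30.3 and 19.3, and of 23.5 and 16.0, both lower in mutant-labelled eyes.

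Netrin ligands lay on both sides of 0, 3 of 5 above it with a median of 0.33, and their repulsive receptors had the highest median of any family. *ntn1a*, whose mouse counterpart lets ganglion cell axons leave the eye at the optic disc, had 3031 and 4795 reads (0.37, interval 0.30 to 0.43). *ntn1b* had 1009 and 1965 (0.67), *ntn2* 329 and 508 (0.33) and *ntn4* 147 and 167 (-0.11, with an interval that spans 0). *NTN5*, on 40 reads in all, was the lowest of the 105 at -1.31, with an interval from -2.43 to -0.34. The attractive receptor gene *DCC* had 140 and 123 reads (-0.48, interval -0.84 to -0.12), which is lower in mutant-labelled eyes than counting error allows for.

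Of the 5 Unc5 receptor genes, 3 were at 1 or more, against 8.9% of all genes, and the family median was 1.28. A count over 5 genes is too small to read as a trait of the family. *unc5b* (chromosome 13, 28997627 to 29097341), which also acts in vessel branching in mice, had 5836 and 17787 reads (1.31, interval 1.27 to 1.36), and was 2.49 times as high in mutant-labelled eyes. *unc5c* had 90 and 280 reads (1.34) and *unc5db* 40 and 120 (1.28, interval 0.76 to 1.85). These 3 genes had like fold-changes at very unlike depths. *UNC5C (2 of 2)* had 29 and 61 reads (0.77, interval 0.12 to 1.47), and *unc5da* had 167 and 191 (-0.10), the only one of the 5 below 0. Markers of endothelium, where *unc5b* and *robo4* are also used in vertebrates, had 138 and 200 summed reads per 1000000 and a median of 0.40 over 7 genes, 5 of them above 0. The part of endothelium in the Unc5 values was not tested.

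Class 3 semaphorins, the secreted ligands of neuropilin and plexin complexes, had a median of 0.36 over 12 genes, with 8 above 0. *sema3e*, which in mice signals through plexin D1 without a neuropilin, had 1021 and 2990 reads (1.26, interval 1.15 to 1.36). *sema3ab* had 1530 and 4145 (1.14, interval 1.06 to 1.23) and *sema3b* 1970 and 5178, which was 2.14 times as high in mutant-labelled eyes (interval 1.02 to 1.18 on the log2 scale). All 3 intervals lay wholly above 1. *sema3fa* (3101 and 6036 reads, 0.67) and *sema3aa* (4093 and 6388 reads, 0.35) were higher by less. Lower in mutant-labelled eyes were *sema3d*, which guides retinal axons at the midline in zebrafish, with 892 and 897 reads (-0.29, interval -0.42 to -0.15), *sema3bl* with 1608 and 1328 (-0.57), and *sema3h* with 70 and 50 (-0.77, interval -1.33 to -0.24).

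Some of these class 3 genes are close neighbours with unlike values. On chromosome 18 of GRCz10, *sema3d* (9213758 to 9280656, -0.29), *sema3ab* (9354097 to 9470930, 1.14) and *sema3e* (9524529 to 9607588, 1.26) stand in a row. The lowest of the 3 is at one end of the row and the 2 genes at 1 or more lie next to each other. On chromosome 8, *sema3bl* (26502873 to 26554824) ends 9867 bases before *sema3b* (26564691 to 26623305) begins, and genes this close lay on opposite sides of 0, *sema3bl* at -0.57. Within 500 kb of one another, 22 of the 105 genes form 10 groups, set by distance alone. Like values were held by *robo4* and *robo3*, 5817 bases apart, at 0.01 and -0.00. Unlike values were held by a row of ephrin-A genes on chromosome 16, *EFNA4* (22979186 to 23071731), *efna3b* (23172293 to 23274851) and *efna1b* (23367622 to 23383117), at -0.92, 0.16 and 0.93. Neighbours among all other genes were not counted, so unlike neighbours are not read as a trait of guidance genes.

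Among the 18 semaphorin genes of classes 4 to 7, most of them membrane-bound ligands of plexins, 11 were above 0 and the median was 0.23. *sema4e* had 177 and 746 reads (1.78, interval 1.54 to 2.03), the largest value of any ligand, though its deposited position (chromosome 2, 49787947 to 49869451) is shared with other genes. *sema7a*, a membrane-anchored semaphorin that binds integrins and plexin C1 in mammals, had 333 and 194 reads (-1.07, interval -1.34 to -0.81), the only one of these 18 at -1 or less. With the larger of the 2 counts alone it was at -0.93. *sema6bb* had 821 and 1653 reads (0.72) and *sema6d* 2441 and 4631 (0.63). *sema5bb*, whose mammalian counterpart keeps neurites of inner retinal neurons within their layer in mice, had 855 and 561 (-0.90), and *sema4c*, a ligand of B plexins, had 2278 and 1695 (-0.72). This class therefore held genes on both sides of 0 with intervals clear of it.

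Semaphorin receptors were higher more often than lower. All 4 neuropilin genes were above 0, in a narrow band: *nrp2b* had 14119 and 22939 reads (0.41), *nrp2a* 5895 and 9644 (0.42), *nrp1a* 7893 and 12235 (0.34) and *nrp1b* 1723 and 3142 (0.57). All 4 intervals were clear of 0, the lowest bound being 0.30. Of 12 plexin genes 8 were above 0, with a median of 0.35. *PLXNB2 (3 of 5)* had 103 and 418 reads (1.72, interval 1.41 to 2.05), and *PLXNB2 (4 of 5)*, which starts 1696 bases after it on chromosome 4, had 60 and 132 (0.84). Whether these adjacent entries are separate genes was not tested, so how reads were divided between them is uncertain. *plxna4*, which in mice carries semaphorin 3A signals into growth cones, had 1070 and 2607 reads (0.99, interval 0.89 to 1.09), and *PLXND1*, the receptor gene of the zebrafish out of bounds vessel mutant, had 305 and 719 (0.94). Lowest were *plxnc1* with 312 and 266 reads (-0.52) and *plxna2* with 2335 and 2301 (-0.32).

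Ephrin-A ligands lay on both sides of 0, and ephrin-B ligands all at or above it. *efna1b* had 1817 and 4245 reads (0.93, interval 0.85 to 1.01) and *efna1a* 2069 and 4081 (0.69). On the other side, *EFNA4* had 2205 and 1431 reads (-0.92, interval -1.01 to -0.82), and *efna2a*, one of the ephrin-As of the vertebrate retinotectal map, had 2550 and 1762 (-0.83). *efna5a*, another ligand of that map, had 10114 and 13624 (0.14, interval 0.10 to 0.17), and *efna3a* had 299 and 287 (-0.35). Thus 5 of 8 ephrin-A genes were above 0 and the median was 0.15. All 5 ephrin-B genes were above 0 with a median of 0.45, but *efnb1*, with 2366 and 2917 reads (0.01, interval -0.07 to 0.09), was at -0.00 with DESeq2 size factors. *efnb2a*, a gene of the dorsal retina in zebrafish and of arteries, had 19950 and 33439 reads (0.45, interval 0.43 to 0.48), *efnb2b* 1756 and 2955 (0.46) and *efnb3b* 2500 and 4229 (0.46), so that these 3 genes had nearly the same fold-change.

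The EphA receptor genes held the largest value of all 105. *epha6* (chromosome 1, 33236467 to 33468627, a position the table gives for 1 more gene) had 132 and 2146 reads, which was 13.2 times as high for mutant-labelled eyes (3.72 on the log2 scale, interval 3.47 to 3.99). Taken alone, the larger counts gave 3.87 and the smaller 3.53. Its rank from the top was 35 among the 21876 genes tested. The other 9 EphA genes were above 0 too but at less than 1, from *epha7* with 6546 and 8093 reads (0.01, interval -0.04 to 0.06) to *EPHA2 (2 of 2)* with 3237 and 6336 (0.67). *epha4b* had 5293 and 9484 reads (0.55), *epha3* 6570 and 8979 (0.16) and *epha4a* 3965 and 4978 (0.03), the last with an interval that spans 0 and a value of -0.00 from the larger counts. No other EphA gene thus came near the value of *epha6*.

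EphB receptor genes had a median of 0.21, with 5 of 8 above 0, and the widest contrast between sister genes of any receptor family. *ephb2a* had 4299 and 10259 reads (0.96, interval 0.91 to 1.01), while *ephb2b*, the EphB gene with the most reads, had 23056 and 17798 (-0.67, interval -0.70 to -0.64). EphB2 receptors mark the ventral retina of vertebrates, and the copies of this gene lay on opposite sides of 0. *EPHB3 (2 of 2)* had 4246 and 3071 reads (-0.76) and *ephb3a* 7961 and 7745 (-0.33). *ephb4a*, a receptor gene of veins, had 4115 and 5705 (0.18). A further row named *EPHB2*, which could not be joined between the tables, had 119 and 151 reads at 36hpf (0.05), so how reads were divided among these copies is uncertain.

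The other genes taken by their prefix lay on both sides of 0. *slitrk6* (chromosome 1, 3723906 to 3726666), whose product is needed for innervation of the inner ear in mice, had 121 and 702 reads (2.24, interval 1.96 to 2.53), the second of the 105 genes at 2 or more. *slitrk4* had 120 and 449 reads (1.61), while *slitrk2* had 101 and 67 (-0.88). The netrin-G genes *ntng1a*, with 203 and 118 reads (-1.07, interval -1.42 to -0.74), and *ntng2a*, with 112 and 65 (-1.07, interval -1.54 to -0.63), were lower in mutant-labelled eyes. For *ntng2a* the smaller counts alone gave -0.42. *unc50* had 1899 and 2145 reads (-0.12). Ligands and receptors proper gave medians of 0.27 over 52 genes and 0.33 over 43 genes. At 1 or more were 5 of the 52 ligands and 6 of the 43 receptors, against 8.9% of all genes. At -1 or less were 2 and 0, against 6.15%. Counts this small are not read as a trait of either group.

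**Figure D2:**
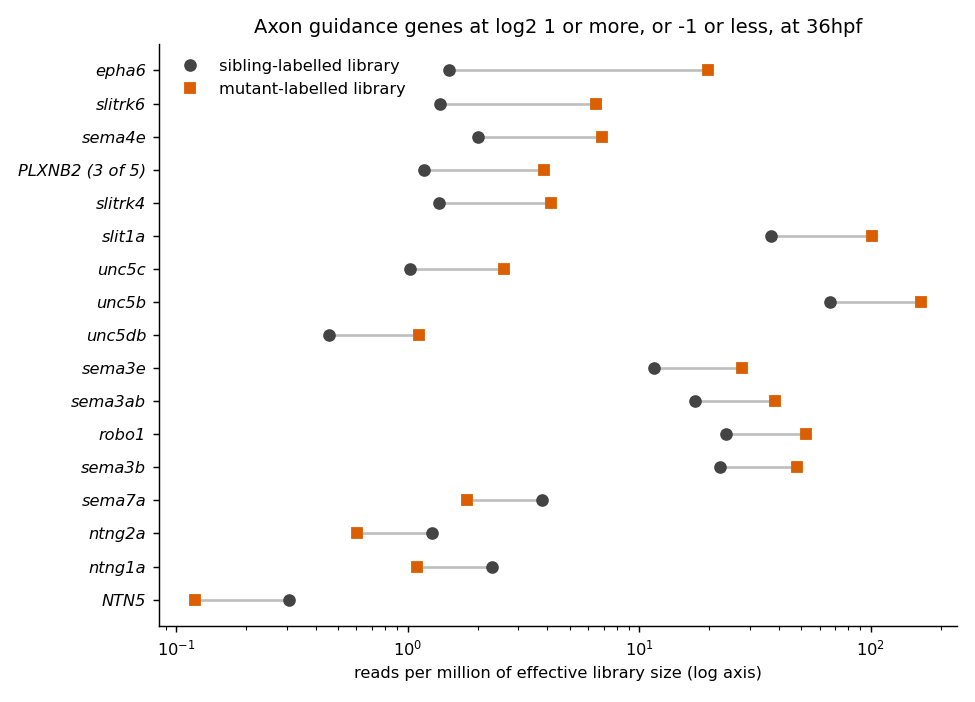
Reads per 1000000 of effective library size (log axis) at 36hpf, for sibling-labelled (circles) and mutant-labelled (squares) eyes, for the 17 genes at a log2 fold-change of 1 or more, or -1 or less. Reads are not corrected for gene length, so each line shows the step of its own gene, such as 13.2 times for *epha6* and 2.49 times for *unc5b*, and levels should not be compared between lines.

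Zebrafish keep many guidance genes as pairs of copies that arose in a whole-genome duplication. Symbols of 20 pairs among the 105 genes differ only in a final a or b. These pairs were matched by symbol alone and their origin was not tested. Some, such as *epha4a* and *epha4b* on chromosome 2, share a chromosome. At 36hpf the intervals of the 2 copies, which cover counting error only, did not overlap in 14 of the 20 pairs, with a median gap of 0.38 between copies. Pairs of other genes were not counted at either stage. The counts of pairs here are thus not read as a trait of guidance genes. Copies lay on opposite sides of 0 in 6 pairs, in 4 of them with both intervals clear of 0. The widest gaps were 1.75 for *slit1a* over *slit1b* and 1.63 for *ephb2a* over *ephb2b*. Other pairs had like values: *nrp2a* and *nrp2b* differed by 0.01, and *efnb2a* and *efnb2b* by 0.01 in the other direction. At 72hpf 17 pairs were measured in both copies, 8 of them on opposite sides of 0, with a median gap of 0.49. There the FPKM was 51.5 and 33.7 for *efnb2a* and 8.30 and 13.7 for *efnb2b*, so the copies that matched at 36hpf lay 1.25 apart. The gap between *sema3aa* and *sema3ab* was wider still, at 1.63 with the b copy higher.

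**Figure D3:**
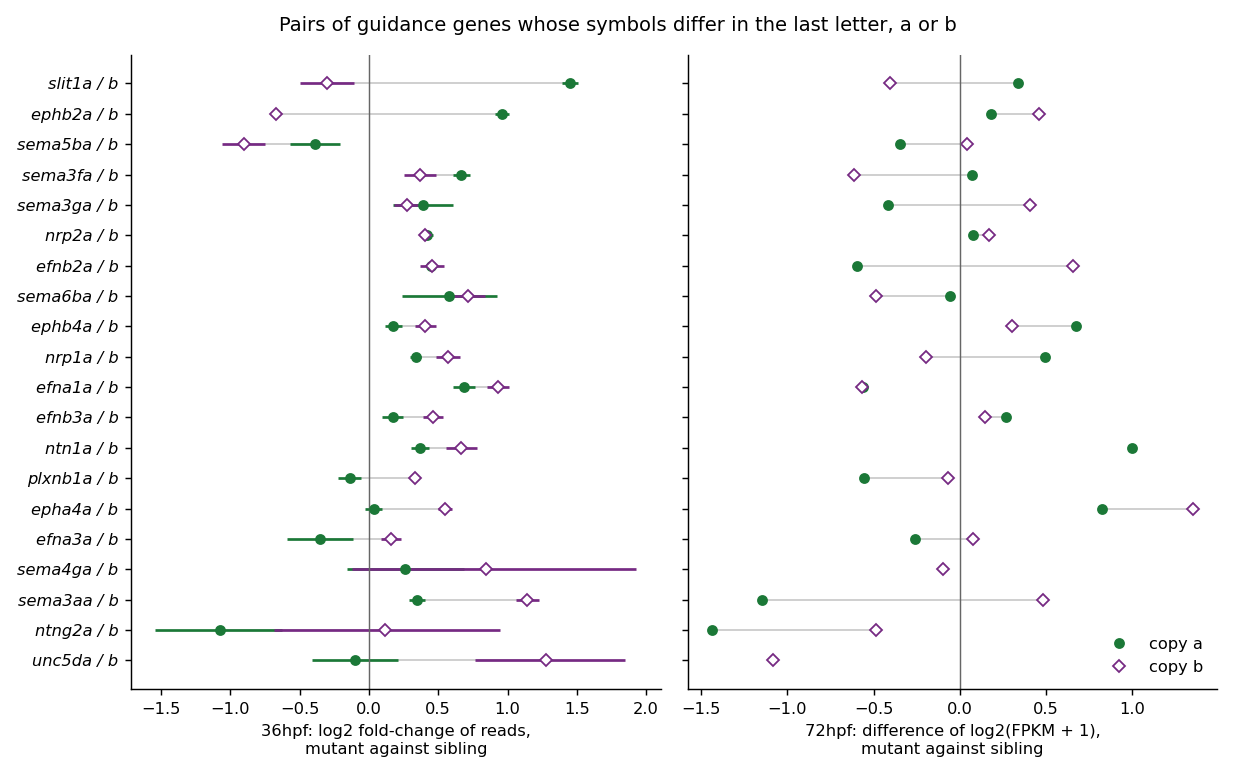
Values of the 20 a and b pairs (copy a filled green, copy b open purple) at 36hpf on the left (log2 fold-change of reads, with exact 95% counting intervals) and 72hpf on the right (difference of log2(FPKM + 1), with no interval). Pairs are ordered by the 36hpf gap, from *slit1a* over *slit1b* by 1.75 at the top to *unc5db* over *unc5da* by 1.38 at the bottom, and a copy below the FPKM minimum is not drawn.

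At 72hpf, where FPKM allows levels of different genes to be compared, the 94 genes that reached the FPKM minimum were ranked. The highest of them in sibling-labelled eyes were *efnb2a* at an FPKM of 51.5, *sema6d* at 51.2, *efna1b* at 38.9, *sema3aa* at 38.4 and *efna1a* at 35.8. In mutant-labelled eyes *sema6d* was highest at 54.9, followed by *nrp1a* at 43.0, *slitrk6* at 42.2, *ephb2b* at 41.9 and *sema6dl* at 40.9. Only *sema6d* was among the first 5 in both libraries. *SEMA6A*, which could not be joined and is not ranked here, had an FPKM of 32.9 and 44.4. Summed over the 105 genes the FPKM was 1116 and 1119, so this sum showed no lean like that of the summed reads at 36hpf. Reads are not corrected for gene length, so the sums of the stages weigh genes differently. In each sum the highest genes count most.

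The median difference of the 94 genes measured at 72hpf was 0.08, and 54 (57.4%) were above 0, against 51.9% of the 17307 genes tested. At 2 or more there were 0 (0.254% of all genes) and at -2 or less there were 0 as well (1.77% of all genes). At the lower threshold, 2 genes were at 1 or more, against 3.65% of all genes, and 7 were at -1 or less, against 9.02%. Of those 7, 4 were netrin-G or Slitrk genes. Among the 66 genes that reached an FPKM of 5 the counts were 2 and 5, against 4.23% and 10.5% of all genes at that level, and 41 (62.1%) were above 0, against 50.3%. Ligands had a median of 0.10 and receptors of 0.13. The FPKM minimum was reached in mutant-labelled eyes only by *NTN5* and *plxnc1* and in sibling-labelled eyes only by *unc5db* and *slitrk2*, so that the direction of these 4 genes was set by the filter.

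The genes at 1 or more at 72hpf were a receptor and a ligand. *epha4b* (chromosome 2, 40424221 to 40659917) had an FPKM of 6.68 and 18.7, a difference of 1.36 in log2(FPKM + 1) and 2.80 times the level. Its sister and neighbour *epha4a* had 3.36 and 6.73 (0.83), which puts both copies of this EphA4 receptor on the same side. *ntn1a* (chromosome 6, 23332726 to 23455336) had 3.05 and 7.12, or 2.33 times the level. Close behind were the ligand genes *EFNA4* with 3.33 and 7.06 (0.90), *EFNA2 (2 of 2)* with 3.03 and 5.82 (0.76) and *SEMA4B (2 of 2)* with 3.10 and 5.94 (0.76).

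Lower in mutant-labelled eyes at 72hpf were first of all the netrin-G genes. *ntng1a* (chromosome 24, 29288520 to 29538493, a position shared with other genes) had an FPKM of 16.8 and 4.37 (-1.73), *ntng2a* (chromosome 8, 11953546 to 12074952) 25.5 and 8.77 (-1.44), and *ntng2b* 27.3 and 19.2 (-0.49). All 3 netrin-G genes were lower, with *ntng1a* 3.85 times as high in sibling-labelled eyes. Of the Slitrk genes, *SLITRK3 (2 of 2)* had 5.58 and 1.52 (-1.38), *slitrk5b* 6.01 and 2.04 (-1.21) and *slitrk4* 3.61 and 1.32 (-0.99). Only *slitrk6*, at 24.9 and 42.2 (0.74), was higher among the 5 Slitrk genes measured. Among them *slitrk2* reached the FPKM minimum in sibling-labelled eyes only, so its direction was set by the filter.

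Among guidance genes proper, *sema3aa* (chromosome 4, 11312465 to 11369641), whose mammalian counterpart collapses growth cones through neuropilin 1 and A plexins, had an FPKM of 38.4 and 16.8 at 72hpf (-1.15). The plexin gene *plxnb2b* had 4.19 and 1.43 (-1.09) and *plxna4* 10.2 and 4.93 (-0.92). *unc5db* had 1.81 and 0.323 (-1.09), but it reached the FPKM minimum in sibling-labelled eyes only, so its direction was set by the filter. Apart from *unc5db*, the genes just named are a semaphorin and plexins. *EPHA5* had 7.88 and 4.11 (-0.80), *epha6* 4.52 and 2.20 (-0.79), *DCC* 2.80 and 1.34 (-0.70) and *efnb2a* 51.5 and 33.7 (-0.60). Other ligand and receptor genes with strong signal differed by less: *slit2* had 30.9 and 27.5 (-0.16), *nrp2b* 32.1 and 36.3 (0.17), *nrp1a* 30.2 and 43.0 (0.50), *robo3* 26.4 and 40.5 (0.60) and *ephb2b* 30.1 and 41.9 (0.46).

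Within families, the ends of the 72hpf range were mostly modest. Of the EphB receptor genes, *ephb4a* was highest with an FPKM of 6.27 and 10.6 (0.68) and *EPHB3 (2 of 2)* lowest with 22.8 and 14.9 (-0.58), while *ephb6*, a receptor without kinase activity, had 30.7 and 31.9 (0.05). *EPHB3 (2 of 2)* was thus lower in mutant-labelled eyes at both stages. Of the plexin genes, *plxna3*, which steers motor axons in zebrafish, had 14.9 and 23.7 (0.64), and *PLXND1* had 1.68 and 3.04 (0.59). These 2 were above 0 at both stages. *plxnc1* had 0.575 and 1.64 (0.75), a direction set by the filter, as it reached the FPKM minimum in mutant-labelled eyes only. Its ligand gene *sema7a* had 3.95 and 2.72 (-0.41), below 0 at both stages. The sister genes *efna1a*, with 35.8 and 23.9 (-0.56), and *efna1b*, with 38.9 and 25.9 (-0.57), had nearly the same difference at 72hpf, and both had been above 0 at 36hpf. Of the Slit ligands, *slit1a* had 3.16 and 4.27 (0.34), *slit3* had 6.28 and 8.18 (0.33) and *slit1b* had 5.72 and 4.08 (-0.40), which are the same sides as at 36hpf.

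By family at 72hpf, netrin ligands had a median of 0.53 over 3 genes, EphA of 0.41 over 9, EphB of 0.24 over 8, Robo of 0.17 over 3, ephrin-B of 0.15 over 5 and neuropilins of 0.12 over 4. Plexins were at -0.15 over 10 genes and Unc5 receptors at -0.18 over 3. Class 4 to 7 semaphorins, with 8 of 16 genes above 0, had a median of -0.01 that turned to 0.05 with upper quartile scaling, so no direction is given for them. The Unc5 median, the highest of any family at 36hpf, was thus below 0 at 72hpf but at 0.18 when an FPKM of 1 was asked for in both libraries, and *unc5b* had an FPKM of 12.5 and 10.9 (-0.18) and *unc5c* 1.96 and 3.28 (0.53).

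**Figure D4:**
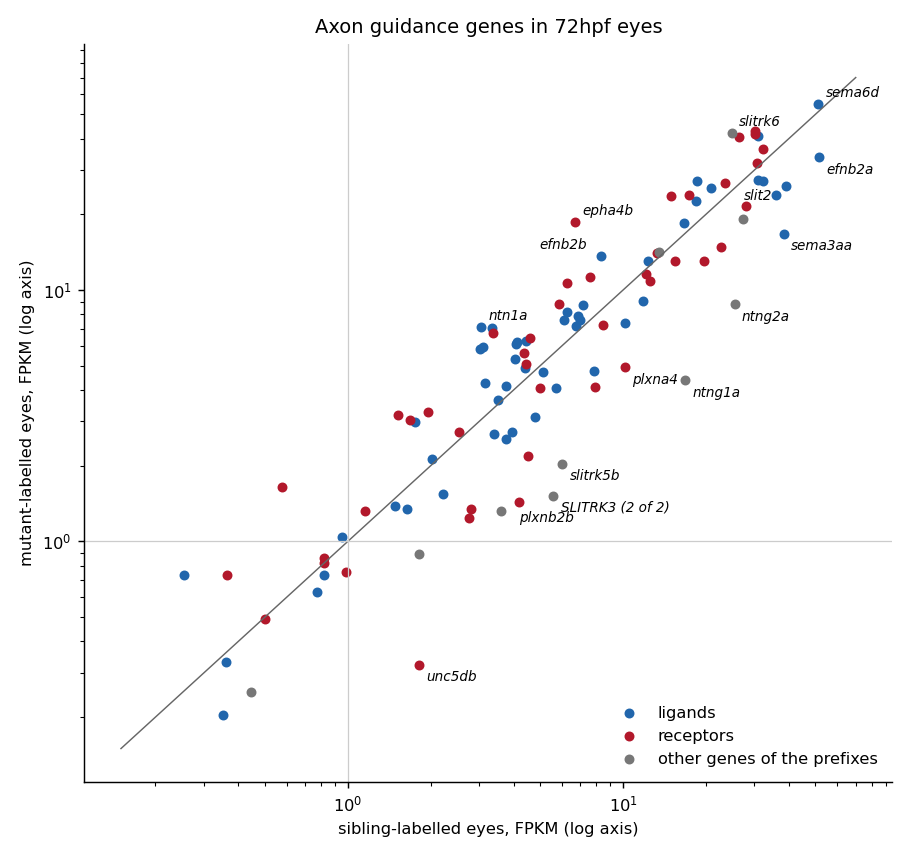
FPKM at 72hpf with sibling-labelled eyes on the horizontal axis and mutant-labelled eyes on the vertical, both on log axes, for the 105 genes, with the line of equal FPKM and thin lines at the minimum of 1. *epha4b* (6.68 and 18.7) and *ntn1a* (3.05 and 7.12) lie above the line, and *ntng1a*, *ntng2a*, *sema3aa* and *unc5db* lie below it.

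The stages are set side by side for the 94 genes measured at both. Of these, 38 were above 0 at both stages, 13 below 0 at both, 27 above 0 at 36hpf and below at 72hpf, and 16 the reverse. The same side was thus kept by 54.3%, against 55.5% of 15449 genes measured at both stages, a share near that of all genes. Above 0 and then below it were 28.7%, against 20.6% of all genes. Taken only over the genes above 0 at 36hpf, the share then below 0 was 41.5%, against 42.2% for all genes. Members above 0 at 36hpf thus changed side about as often as other genes. Across these 94 genes Pearson's r was 0.04 and Spearman's rho 0.06, and across all 15449 genes both were 0.18. Genes are not independent replicates, and the points of each stage share 2 libraries. At the threshold of 1, 10 of the 94 genes were at 1 or more at 36hpf only (*epha6*, *robo1*, *sema3ab*, *sema3b*, *sema3e*, *slit1a*, *slitrk4*, *slitrk6*, *unc5b* and *unc5c*), 2 at 72hpf only and 0 at both. These are 10.6%, 2.13% and 0% of the 94, against 5.56%, 2.80% and 0.434% of all genes. *ntng1a* and *ntng2a* were at -1 or less at both stages (2.13%, against 1.42% of all genes). Neither threshold was reached at either stage by 73 of the 94 (77.7%, against 79.6%).

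*unc5db* was at 1.28 at 36hpf and at -1.09 at 72hpf. It was the 1 gene of the 94 past 1 at 36hpf and past -1 at 72hpf (1.06%, against 0.602% of all genes). It reached the FPKM minimum through sibling-labelled eyes only, so that its 72hpf direction was set by the filter, and whether the stages differ was not tested. *epha6* was at 3.72 at 36hpf and at -0.79 at 72hpf, where a separate row named *EPHA6* that could not be joined had an FPKM of 2.92 and 2.43 (-0.19). *plxna4* was at 0.99 and then -0.92, *efna1b* at 0.93 and then -0.57, and *EFNA4* at -0.92 and then 0.90. *ephb2b* was at -0.67 and then 0.46. In contrast *slit1a* (1.45 and 0.34), *sema3e* (1.26 and 0.32), *sema3ab* (1.14 and 0.48) and *robo1* (1.14 and 0.17) were above 0 at both stages but by less at 72hpf, on scales that are not the same.

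**Figure D5:**
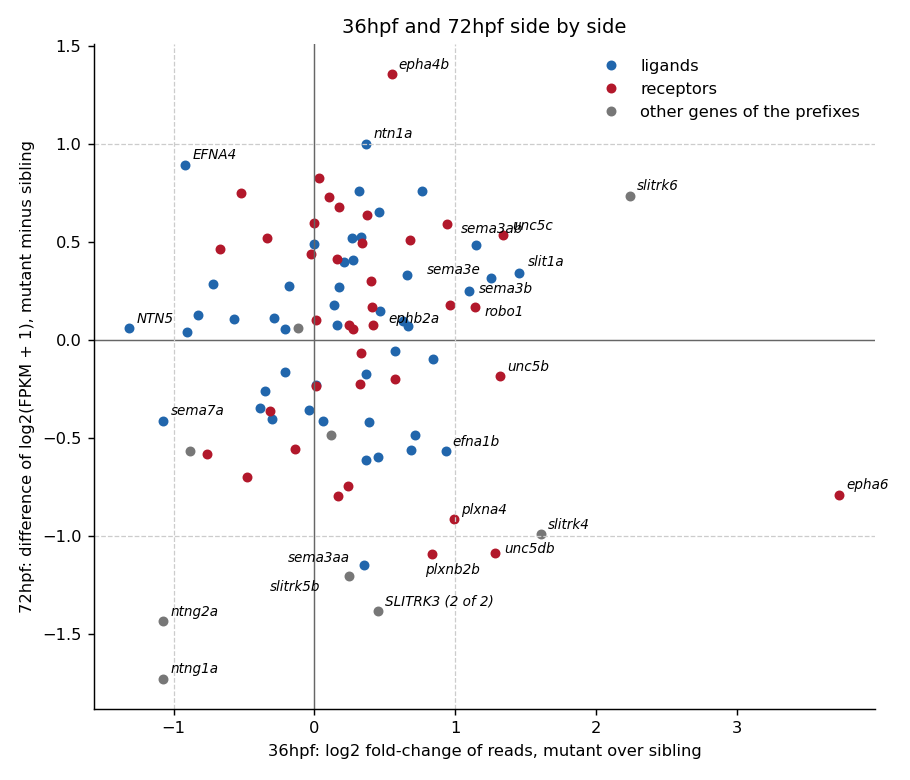
Each of the 94 genes measured at both stages, with its 36hpf log2 fold-change of reads on the horizontal axis and its 72hpf difference of log2(FPKM + 1) on the vertical axis, dashed lines marking 1 and -1. The points form no line, *epha6* lies far to the right at 3.72 and -0.79, and *ntng1a* and *ntng2a* sit alone in the lower left corner.

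Other genes of the guidance pathways, cofactors, further ligands, adhesion molecules and the enzymes that carry the signal to the cytoskeleton, are set beside the ligands and receptors here. Of 81 such genes tested at 36hpf, 6 were at 1 or more, 12 were at -1 or less, 43 were above 0 and the median was 0.05. These are 7.41%, 14.8% and 53.1%, against 8.9%, 6.15% and 51% of all genes. Their 72hpf median was -0.04 over 74 genes, 6 of which reached 1 (8.11%, against 3.65%) and 8 of which reached -1 (10.8%, against 9.02%). The chemokine receptor gene *cxcr4b*, which acts in retinal axon guidance in zebrafish, had 2406 and 416 reads at 36hpf (-2.82, interval -2.98 to -2.68) and an FPKM of 9.19 and 21.7 at 72hpf (1.16). Its ligand gene *cxcl12a* had 2429 and 1486 reads (interval -1.10 to -0.91) and an FPKM of 12.5 and 23.4 (0.85). The sister copies were on the other side at 36hpf: *cxcr4a* had 373 and 958 reads (1.07) and *cxcl12b* had 4826 and 8005 (0.44). At 72hpf all 4 were above 0.

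Lower at 36hpf and higher at 72hpf was also *draxin*, a secreted repellent that binds netrin and DCC, with 4957 and 2287 reads (-1.41) and an FPKM of 10.6 and 24.4 (1.13). *chl1a*, an L1 family adhesion molecule gene, went the other way with 362 and 1865 reads (2.07, interval 1.91 to 2.24) and an FPKM of 19.1 and 4.98 (-1.75). Its copy *chl1b* had 1082 and 1083 reads (-0.29) and an FPKM of 35.0 and 8.16 (-1.97). *crmp1*, which relays semaphorin 3A signals in mammals, had 641 and 255 reads (-1.62), *nrcama*, an adhesion partner of neuropilins, had 813 and 354 (-1.49), and *srgap1b*, of a family that acts below Robo receptors, had 173 and 41 (-2.36). The part of the ganglion cell markers, on both sides of 0 at 36hpf, in these values was not tested. *flrt2*, a ligand gene of Unc5 receptors, had 1542 and 4640 reads (1.29, interval 1.21 to 1.38). Of the 5 Unc5 genes, 4 were above 0 at 36hpf as well, and *unc5da* was below. At 72hpf *flrt2* was at 0.45, while 1 of 3 Unc5 genes was above 0 and 2 were below. A link between *flrt2* and the Unc5 values was not tested.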

How the data were processed

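For 36hpf the authors used CLC Genomics Workbench to map poly-A RNA-seq reads on GRCz10 and to count them. The header of the deposited table says FPKM, but the values are estimated counts in form, each the mean of 2 whole counts. The authors' log2 columns hold the mean log2 of the same counts and served only to recover them, and their signed ratio (fold) and score columns were not used. The sources used here do not say whether the 2 counts are runs or libraries, so they were summed and taken as 1 sample. The authors' 72hpf values are deposited FPKM from TopHat and Cufflinks, whose versions the sources used here do not give. A table of the authors' own fold-changes and p-values for 72hpf was not used. FastQC is named in the submitters' processing notes.

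Sums were scaled by TMM in edgeR 4.0.16 (R 4.3.3) over genes with at least 20 reads, giving effective sizes of 88028822 and 107941030, and 0.5 reads were added in proportion to size. Exact intervals came from SciPy 1.17.1. Reads were not marked by molecule, so intervals cover counting error only. Between the larger and the smaller counts the log2 fold-change of the 105 genes differed by a median of 0.08, and its sign was the same for 97. The largest gap among genes with at least 100 reads was 1.83, for *slitrk5b* (-0.41 with the larger counts and 1.42 with the smaller). Larger and smaller were told apart gene by gene, so they need not be the same run or library for each gene. No test was run across samples. The steps were tested on simulated counts.

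Genes were matched by symbol. Rows left unjoined numbered 7 at 36hpf and 12 at 72hpf. Positions are those of the 72hpf table, where 24 of the 105 genes share theirs with another gene, and reads of such genes may be split. Use of strand in counting is not stated there. Genes were named if they passed 1 in either direction (with at least 100 reads at 36hpf), were highest or lowest in their family, are known from retinal axons, or lay next to a minimum. The members, lists and rules were chosen with earlier results of these data known. Alternatives were DESeq2 1.42.0 size factors, total reads, other minimums and added amounts, each count alone, upper quartile scaling of FPKM, lower case symbols only, and leaving out genes of no ligand or receptor family. Protein and promoter sequences were not used here.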

Additional observations from a re-analysis of the deposited data

Results flagged for a closer look

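*unc5db*, a netrin receptor gene, was at 1.28 at 36hpf (40 and 120 reads) and at -1.09 at 72hpf (FPKM 1.81 and 0.323). It is given because its values passed 1 in opposite directions at the 2 stages. Opposite sides of 0 were about as common among the 94 genes as among all genes, with 27 above and then below and 16 the reverse. *unc5db* reached the FPKM minimum in sibling-labelled eyes only, so its 72hpf direction was set by the filter, and whether the stages differ was not tested. *robo2* stands on more than 1 row of each table and is in no comparison above, yet its 36hpf rows were at 2.03 (19 and 97 reads) and 1.07 (949 and 2443 reads), which is why it is given here. Its 72hpf rows were at -0.63 and -0.53. Unjoined rows were flagged only at 1 or more, so *SLITRK5 (2 of 2)*, at -1.17 at 72hpf, was not flagged.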

How the results depend on the processing

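Of 114 values recomputed for the counts and medians under other settings, 105 stayed within 1.5 times the reported count, or near the reported median, and 9 moved further. Without the Slitrk and netrin-G genes, with or without *unc50*, the count at 2 or more at 36hpf was 1 in place of 2. The count at -1 or less was 2 in place of 4 at 36hpf and 3 in place of 7 at 72hpf. At 36hpf these settings leave out *slitrk6*, at 2 or more, and *ntng1a* and *ntng2a*, at -1 or less. At 72hpf they leave out *ntng1a*, *ntng2a*, *SLITRK3 (2 of 2)* and *slitrk5b*, all at -1 or less. With 0.1 in place of 1 added to the FPKM, 5 genes were at 1 or more, 12 at -1 or less and 1 (*unc5db*, -2.17) at -2 or less at 72hpf, as a smaller addition widens the differences of low genes. The median ran from 0.27 to 0.32 at 36hpf and from 0.06 to 0.16 at 72hpf over the settings tried. Family medians that changed side were Robo at 36hpf (-0.00 with DESeq2 size factors) and, at 72hpf, class 4 to 7 semaphorins (0.05 with upper quartile scaling, 0.28 with an FPKM of at least 5), Slit (-0.16 with an FPKM of at least 5), Unc5 (0.18 with an FPKM of at least 1 in both libraries) and ephrin-A (-0.09 with lower case symbols only). Leaving out *unc50* and asking for 100 reads or an FPKM of 5 were settings chosen after seeing the data. For single genes, *ntng2a* was at -0.42 with the smaller counts and *sema7a* at -0.93 with the larger. No paired analysis was possible because each genotype and stage has 1 sample, and no replicate could be left out. Depth limits the genes with few reads, such as *NTN5* and *sema4gb*, whose intervals span more than 2.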

Other observations

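Several guidance genes stand in the 72hpf table under symbols that could not be joined to the 36hpf table, and they are given here as values. *SEMA6A* had an FPKM of 32.9 and 44.4 (0.42), *EFNA5 (2 of 2)* 6.06 and 7.80 (0.32), *EPHB2 (1 of 2)* 9.24 and 5.12 (-0.74), *EPHB2 (2 of 2)* 7.42 and 4.34 (-0.66) and *unc5a* 2.07 and 1.22 (-0.46). The synaptic organizer genes *SLITRK5 (2 of 2)* and *SLITRK1* had 3.78 and 1.12 (-1.17) and 2.45 and 0.941 (-0.83). *SLITRK1* reached an FPKM of 1 in sibling-labelled eyes only, so its direction was set by the filter. At 36hpf *efna5b* had 260 and 426 reads (0.42), *ROBO3 (2 of 2)* 492 and 366 (-0.72), and the rows of *plxnb2a* 4490 and 9287 (0.75) and 214 and 371 (0.50).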
